A study of Homo sapiens with 6 samples.

Results

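The MiT/TFE family comprises *MITF*, *TFEB*, *TFE3* and *TFEC*, and the 9 genes described here were these 4 factors, the MITF targets *GPNMB*, *MLANA* and *MC1R*, and the lysosomal genes *CTSA* and *LAMP1*. They were taken by their gene symbols from the 14812 genes that could be named on the arrays, and each was measured by 1 probe set. UM-Cis, the cisplatin-resistant line, was derived from the oral squamous cell carcinoma line UMSCC1 by exposure to rising concentrations of cisplatin, and UMSCC1 is the parental line. A vehicle-treated parental culture was kept alongside, and no source says whether it was the UMSCC1 profiled here. Total RNA of 3 UM-Cis and 3 UMSCC1 samples, both cultured without cisplatin at harvest, was run on 6 arrays of the Affymetrix Human Gene 2.0 ST design. The values were log2 signals that the authors had normalized between the arrays. The comparison asked how the resistant line differed from its parent. Only 1 derived line was profiled. No source says whether the 3 samples of a line were grown apart, and the p-values therefore cover the spread among these samples alone, which may be technical.

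MiT/TFE factors are basic helix-loop-helix leucine zipper proteins that bind as dimers to E-box DNA. TFEB, TFE3 and MITF are held in the cytoplasm by phosphorylation through mTORC1 at the lysosome surface, and on nuclear entry they switch on genes of lysosome biogenesis and autophagy. In melanocytes a tissue-restricted MITF isoform drives pigment genes such as *MLANA* through the related M-box. Their activity is set in large part by where the protein is, which an mRNA signal does not measure.

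The second principal component, which held 28.6% of the variance, set the array with no number in its label apart from arrays 1 and 2 in both lines. The array medians lay between 4.74 and 4.82. Of 9 measured squamous epithelial markers, 4 to 6 lay above the array median in UM-Cis and 7 to 8 in UMSCC1. Their summed log2 signal was 57.2 to 58.7 in UM-Cis and 63.9 to 64.4 in UMSCC1, and *KRT13* and *KRT5* were the 2 that passed the test, with log2 differences of -2.05 and -1.94. *TP63*, *KRT6A*, *KRT17* and *PERP* were not analysed here. The part of the lower *KRT13* and *KRT5* signals in the results on the members was not tested.

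The promoter windows of 4 members carried E-box letters and are shown because these are the letters that MiT/TFE factors bind. Windows ran from 250 bases before to 50 bases after the gene start (RefSeq, GRCh38.p14). All 9 members had at least 1 window, 14 in total. Capitals mark the canonical E-box CACGTG and the M-box core CATGTG, which reads CACATG on the other strand.

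LAMP1, chr13:113296989-113297288, + strand: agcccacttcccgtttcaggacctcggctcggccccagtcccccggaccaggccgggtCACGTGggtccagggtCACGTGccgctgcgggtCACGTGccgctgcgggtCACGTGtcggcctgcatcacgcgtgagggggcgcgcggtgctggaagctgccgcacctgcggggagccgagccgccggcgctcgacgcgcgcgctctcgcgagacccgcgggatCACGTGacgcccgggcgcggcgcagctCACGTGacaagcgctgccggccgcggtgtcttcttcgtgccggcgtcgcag
CTSA, chr20:45891085-45891384, + strand: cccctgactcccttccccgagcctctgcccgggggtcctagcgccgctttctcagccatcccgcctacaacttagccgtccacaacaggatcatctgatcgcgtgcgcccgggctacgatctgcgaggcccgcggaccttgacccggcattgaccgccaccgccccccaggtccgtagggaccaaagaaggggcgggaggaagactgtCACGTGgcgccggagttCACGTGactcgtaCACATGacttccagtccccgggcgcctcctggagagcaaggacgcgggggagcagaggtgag
GPNMB, chr7:23246525-23246824, + strand: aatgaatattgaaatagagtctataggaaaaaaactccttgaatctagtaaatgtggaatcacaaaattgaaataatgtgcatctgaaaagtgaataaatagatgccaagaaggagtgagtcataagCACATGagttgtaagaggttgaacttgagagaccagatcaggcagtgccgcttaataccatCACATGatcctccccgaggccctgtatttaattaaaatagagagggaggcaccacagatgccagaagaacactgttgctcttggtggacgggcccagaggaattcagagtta
MC1R, chr16:89918612-89918911, + strand: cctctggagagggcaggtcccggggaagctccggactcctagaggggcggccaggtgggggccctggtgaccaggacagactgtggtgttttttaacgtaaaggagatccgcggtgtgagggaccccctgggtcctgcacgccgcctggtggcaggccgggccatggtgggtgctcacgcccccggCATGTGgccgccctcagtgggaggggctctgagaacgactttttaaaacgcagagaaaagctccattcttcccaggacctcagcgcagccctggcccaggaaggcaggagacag

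The *LAMP1* window held 6 copies of CACGTG, which began at positions -192, -176, -159, -142, -28 and -1 from the gene start. The *CTSA* window held 2 copies, at -42 and -25, and 1 CACATG at -12. The *GPNMB* window held 2 copies of CACATG, at -123 and -62, and the *MC1R* window 1 CATGTG at -64. Of all 35116 promoter windows of this length, 7.26% held CACGTG and 11.1% held CATGTG. Both hexamers were searched on both strands. The windows of *MITF*, *TFEB*, *TFE3*, *TFEC* and *MLANA* held neither hexamer. A match is a run of letters, and none of these data measured binding.

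**Figure D1:**
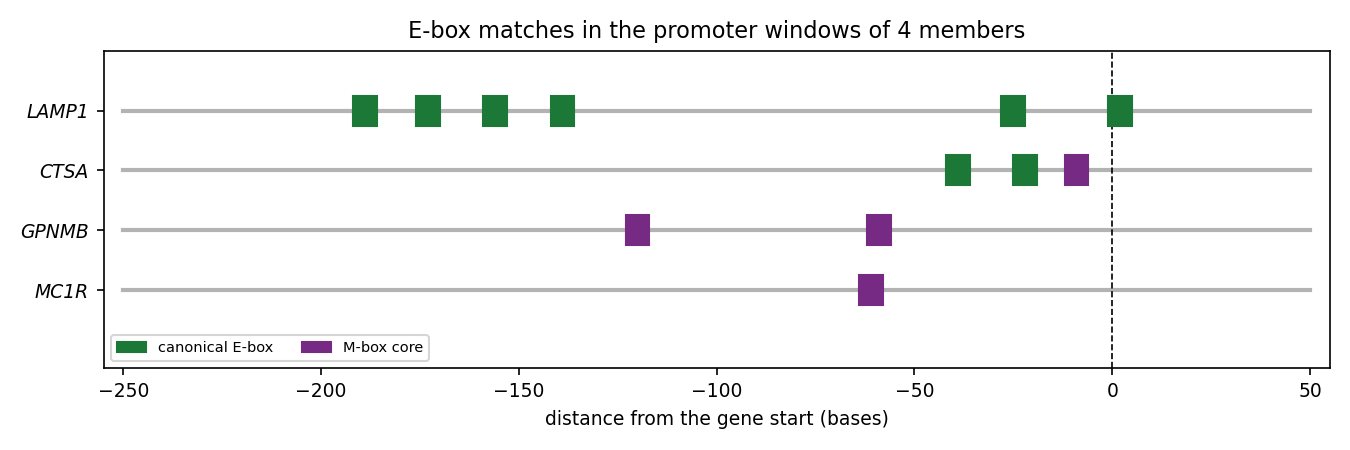
E-box matches by distance from the gene start (bases, gene start at the dashed line) in the promoter windows of *LAMP1*, *CTSA*, *GPNMB* and *MC1R*, with canonical E-boxes in green and M-box cores in purple. The 6 matches of *LAMP1* form a group of 4 upstream and a pair near the start, and the 3 of *CTSA* lie within 42 bases of the start.

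Of the 9 members, *MITF* and *GPNMB* were higher and *CTSA* and *LAMP1* lower in the resistant line by limma, a linear model fitted over all genes (Benjamini-Hochberg adjusted p under 0.05), and 5 did not pass. Over all genes tested, 5.91% rose and 4.6% fell by this rule, 10.5% in all. *MITF* and *GPNMB* also changed at least 2-fold at an unadjusted p under 0.05, as did 2.44% of all genes upward and 1.7% downward. The signals of UM-Cis and UMSCC1 did not overlap for 6 members, the 4 above and *TFEB* and *TFEC*, against 30.4% of all genes. Of these members 2 were higher and 4 lower, against 14.7% and 15.7% of all genes.

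*MITF*, the founding member of the family and the melanocyte master factor, had log2 signals of 5.80, 5.62 and 5.55 in UM-Cis, against 4.08, 4.03 and 4.06 in UMSCC1. All UM-Cis arrays lay above all UMSCC1 arrays, and the UMSCC1 arrays spread little. The means were 5.65 ± 0.13 and 4.06 ± 0.03 (SD, n = 3 each) for UM-Cis and UMSCC1. The log2 difference was 1.60 (SE 0.13, where SE is the standard error, limma adjusted p = 0.000593), a 3.03-fold rise. It was the 91st largest rise among the 14812 genes. In UM-Cis the signal stood above 65.2 to 69.8% of all probe sets of its array, and in UMSCC1 above 33.6 to 35.3%. The UMSCC1 signals thus lay under the array median, by 0.69 to 0.79, and whether they were above background is not known. By array label, the difference was 1.72 between the arrays with no number, 1.59 between the arrays 1 and 1.49 between the arrays 2. *MITF* passed without any 1 array (adjusted p from 0.00122 to 0.00674) and, at 0.0157, with the methods' t-test, which is unpaired and fitted gene by gene. With 1 probe set for the gene, and 3 start sites in the promoter table, transcripts from different starts cannot be told apart. In bulk RNA, a larger share of cells with the transcript and more transcript per cell cannot be told apart either.

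*TFEB*, a main activator of lysosomal genes, had log2 signals of 4.72, 4.80 and 4.74 in UM-Cis, against 5.52, 5.05 and 4.84 in UMSCC1. The UM-Cis arrays were all slightly below the lowest UMSCC1 array, which lay close to them, and the UMSCC1 array with no number stood highest. The log2 difference was -0.38 (95% interval -0.80 to 0.04, limma adjusted p = 0.245), and it was -0.80, -0.25 and -0.10 between the arrays with no number, 1 and 2. The UM-Cis signals lay within 0.06 of the array median. *TFE3*, the close relative of TFEB that shares many of its targets, had log2 signals of 7.97, 7.31 and 7.42 in UM-Cis, against 7.67, 7.36 and 7.50 in UMSCC1. The lines overlapped, and the highest signal in each came from the array with no number. The log2 difference was 0.06 (95% interval -0.39 to 0.50, limma adjusted p = 0.901), and each signal was above 87.3 to 91.7% of the probe sets of its array. *TFEC*, the family member known mainly from macrophages and other myeloid cells, had log2 signals of 2.50, 2.55 and 2.57 in UM-Cis, against 2.90, 2.61 and 2.70 in UMSCC1. These were far below the array medians, above only 9.64 to 14.6% of probe sets, and the log2 difference was -0.20 (95% interval -0.50 to 0.10, limma adjusted p = 0.414). Of the 4 factors only *MITF* passed the test. When each array was set to the same median signal of 7 control genes, which raised every difference by 0.47, the differences of *TFEB* and *TFEC* were 0.09 and 0.27 and that of *TFE3* was 0.53, none past the test.

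**Figure D2:**
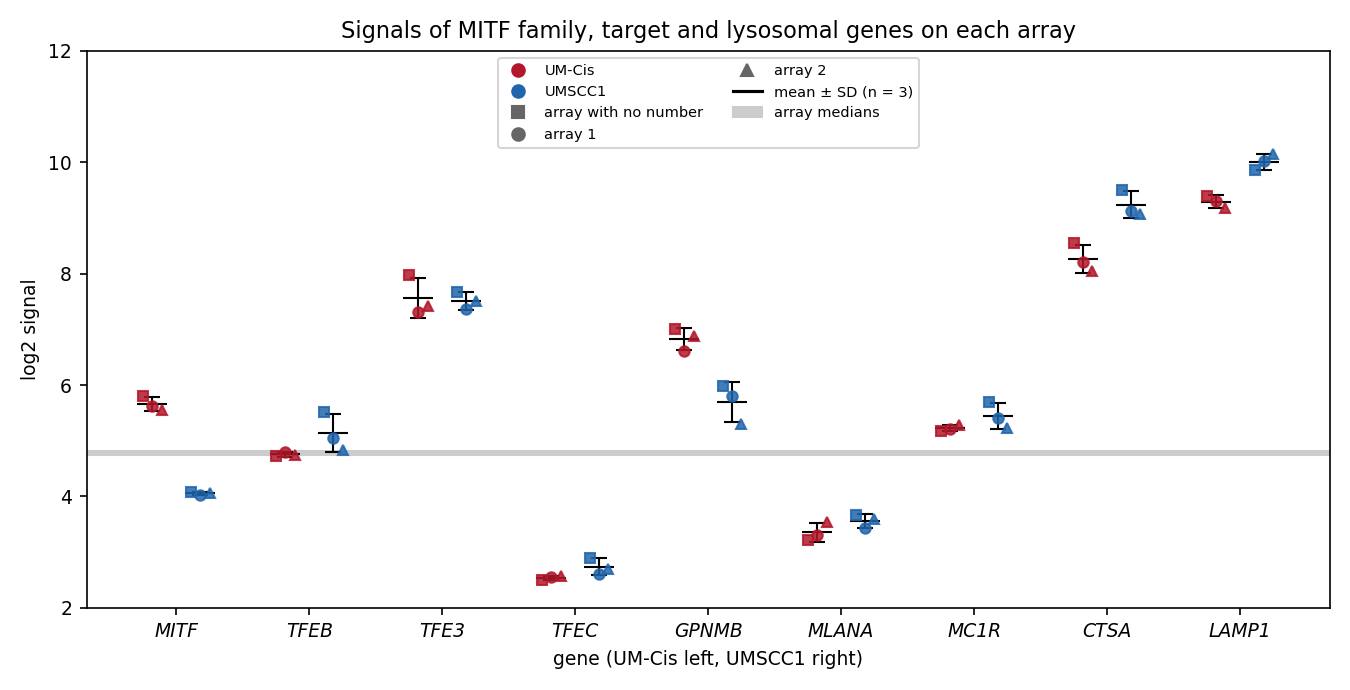
Log2 signals of the 9 members on each array, UM-Cis (red) left of UMSCC1 (blue), with marker shape for the array label, bars for the mean ± SD (n = 3) and a grey band for the array medians (4.74 to 4.82). The *MITF* points lie above the band in UM-Cis (5.55 to 5.80) and below it in UMSCC1 (4.03 to 4.08), while *TFEC* and *MLANA* lie below it in both lines.

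*GPNMB*, a glycoprotein of melanosomes and lysosomes that is a known target of MITF and of TFE3, had log2 signals of 7.01, 6.62 and 6.88 in UM-Cis, against 5.99, 5.80 and 5.29 in UMSCC1. Every UM-Cis array was above every UMSCC1 array, and UMSCC1 array 2 stood lowest. The means were 6.83 ± 0.20 in UM-Cis and 5.69 ± 0.36 in UMSCC1 (SD, n = 3 each). The rise was 1.14 on the log2 scale (SE 0.20, limma adjusted p = 0.0101), or 2.20-fold, and ranked 257th among all genes. The signal was above the array median in both lines, by 1.84 to 2.27 in UM-Cis and 0.50 to 1.22 in UMSCC1. Without any 1 array the adjusted p stayed between 0.00838 and 0.0456, and by the methods' t-test it was 0.0924.

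The melanocyte members did not pass the test. *MLANA*, the melanosome antigen MART-1, had log2 signals of 3.22, 3.30 and 3.53 in UM-Cis, against 3.67, 3.43 and 3.60 in UMSCC1. The lines overlapped, the signals stood above only 19.9 to 27.2% of probe sets, and the log2 difference was -0.21 (95% interval -0.54 to 0.11, limma adjusted p = 0.413). *MC1R*, the receptor for melanocyte-stimulating hormone, had log2 signals of 5.18, 5.21 and 5.29 in UM-Cis, against 5.69, 5.41 and 5.24 in UMSCC1. The lines overlapped here as well, and the signals lay 0.43 to 0.93 above the array medians. The log2 difference was -0.22 (95% interval -0.57 to 0.12, limma adjusted p = 0.42). After the control gene shift the differences were 0.26 for *MLANA* and 0.25 for *MC1R*, neither past the test.

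*CTSA*, the protective protein cathepsin A that stabilizes lysosomal beta-galactosidase and neuraminidase, had log2 signals of 8.54, 8.20 and 8.05 in UM-Cis, against 9.51, 9.12 and 9.08 in UMSCC1. All UM-Cis arrays were below all UMSCC1 arrays, and the array with no number was the highest of each line. The means were 8.27 ± 0.25 in UM-Cis and 9.24 ± 0.24 in UMSCC1 (SD, n = 3 each). The log2 difference was -0.97 (SE 0.18, limma adjusted p = 0.013), a 1.96-fold lower signal. It was -0.97, -0.92 and -1.03 between the arrays with no number, 1 and 2. The signals were bright, above 92.6 to 98.0% of the probe sets of an array. *CTSA* lost the call without UM-Cis array 1 (adjusted p = 0.0611) or 2 (0.0566), by the methods' t-test (0.0915), and after the control gene shift (log2 difference -0.50, adjusted p = 0.141).

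*LAMP1*, a major glycoprotein of the lysosomal membrane, had log2 signals of 9.40, 9.31 and 9.17 in UM-Cis, against 9.85, 10.02 and 10.14 in UMSCC1. The lines did not overlap, and the gap was smallest between the arrays with no number. The means were 9.29 ± 0.11 in UM-Cis and 10.01 ± 0.15 in UMSCC1 (SD, n = 3 each). The log2 difference was -0.72 (SE 0.14, limma adjusted p = 0.0147), a 1.64-fold lower signal, and it was -0.46, -0.72 and -0.97 between the arrays with no number, 1 and 2. *LAMP1* was among the brightest probe sets of each array, above 97.3 to 99.1% of them. It lost the call without array 1 or 2 of either line (adjusted p up to 0.0658), by the methods' t-test (0.0547), and after the control gene shift (log2 difference -0.25, adjusted p = 0.459).

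**Figure D3:**
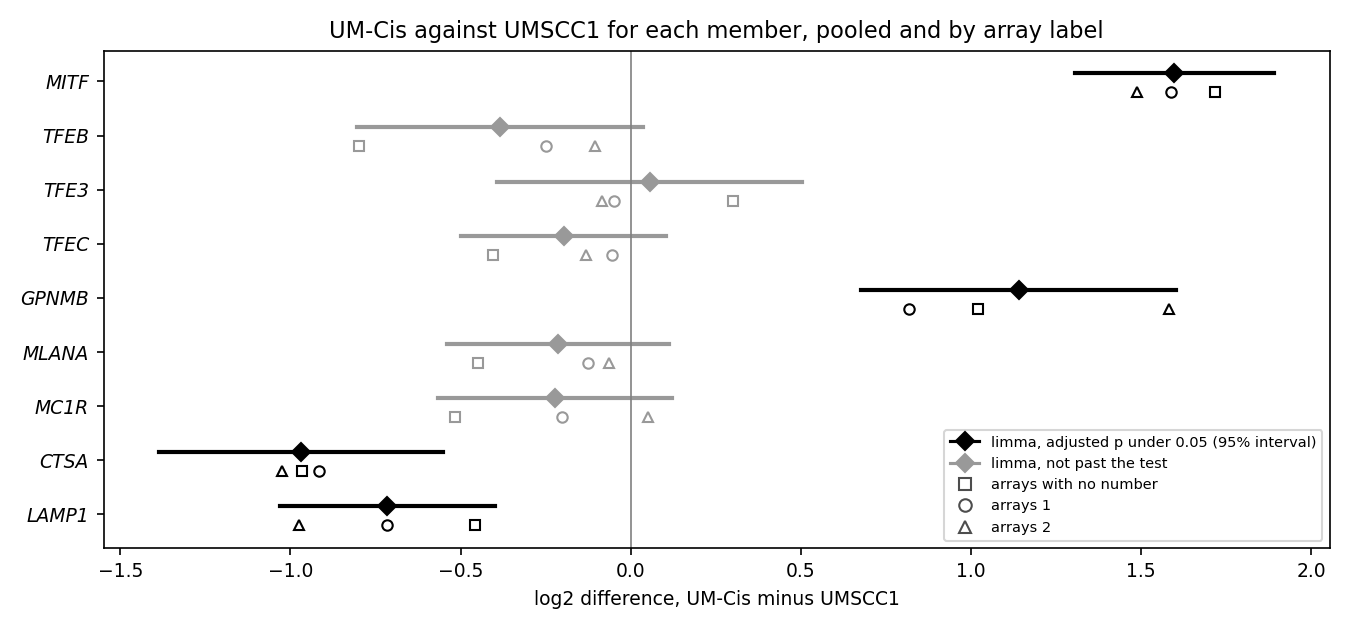
Log2 difference, UM-Cis minus UMSCC1, of each member: diamonds with the 95% interval from limma (black past the test, grey not), and open symbols for the difference between arrays of the same label. All 3 same-label differences are above 0 for *MITF* (1.49 to 1.72) and *GPNMB* (0.82 to 1.58) and below 0 for *CTSA* (-1.03 to -0.92) and *LAMP1* (-0.97 to -0.46), values that hold for the signals as deposited.

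A shift of a whole array cannot move the difference between 2 genes of that array. This comparison was chosen after the values were seen. Each value follows from the log2 differences of its 2 genes given above, so it adds nothing on the direction of either gene. The *MITF* signal minus the *LAMP1* signal was -3.69 to -3.60 in UM-Cis and -6.09 to -5.77 in UMSCC1, so that this within-array value was 2.31 higher in UM-Cis on the log2 scale. *MITF* minus *CTSA* was higher by 2.57, *GPNMB* minus *CTSA* by 2.11, *GPNMB* minus *LAMP1* by 1.86, *MITF* minus *TFEB* by 1.98 and *MITF* minus *TFE3* by 1.54. An exact permutation test over the arrays gave p = 0.1 for each of the 6 pairs. With 3 arrays per line it cannot give a lower p, so it decides nothing. The values are given as a description.

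The genes closest to *MITF* over the 6 arrays, by the root mean square difference of log2 signals centred on each gene's mean, were *PTGR2*, *GLIPR1* and *PROM1*. Their distances from *MITF* were 0.0565, 0.0651 and 0.0799. *PTGR2*, a prostaglandin reductase, was higher by 1.52 on the log2 scale. *GLIPR1*, a secreted and membrane glycoprotein of the CAP family, was higher by 1.62, and *PROM1*, the surface antigen CD133, by 1.59. These 3 were picked for their likeness to *MITF*, which fixes that their differences are close to its own.

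Of 17 measured regulators of MiT/TFE factors in the mTORC1 and folliculin branch, 3 rose, 0 fell and 14 did not pass in limma, where 5.91% of all genes rose and 4.6% fell. At an unadjusted p under 0.05, 9 were higher and 0 lower, against 12.7% and 12.0% of all genes, and by the methods' t-test 1 and 0, against 2.17% and 1.67%. Their median log2 difference was 0.36, against -0.04 over all genes. With the replicate label as a block 8 rose and 0 fell, where 9.79% of all genes rose and 8.4% fell. *RRAGD*, the Rag GTPase through which MiT/TFE factors and mTORC1 are brought together and itself a known target of the family, had log2 signals of 6.41, 6.31 and 6.04 in UM-Cis, against 5.13, 5.06 and 4.53 in UMSCC1. The lines did not overlap, and the log2 difference was 1.35 (SE 0.19, limma adjusted p = 0.00429). Its close relative *RRAGC* had log2 signals of 8.02, 8.16 and 8.19 in UM-Cis, against 6.89, 7.37 and 7.17 in UMSCC1, which is 0.98 higher (SE 0.16, limma adjusted p = 0.00663). By the methods' t-test neither passed (adjusted p = 0.0615 for *RRAGD* and 0.0566 for *RRAGC*). *TSC1*, an inhibitor of mTORC1, did not pass that test either (adjusted p = 0.0853). The regulator that rose by that test was thus none of these. In limma *TSC1* rose by 0.63 (adjusted p = 0.0292). It lost the call without UM-Cis array 1 or 2, the UMSCC1 array with no number or UMSCC1 array 1 (adjusted p up to 0.123). Another 5 genes passed with the block and not in limma without it. These were *FLCN*, the folliculin GTPase activator for RagC and RagD, its partners *FNIP1* and *FNIP2*, *LAMTOR5* and *MTOR*. They differed by 0.47, 0.60, 0.48, 0.53 and 0.60 (limma adjusted p from 0.0795 to 0.123 without the block and from 0.0164 to 0.0408 with it). Genes that passed only with the block are named for this list alone. Among the lysosomal genes below, such genes went both ways. *RRAGA* and *RRAGB*, the other Rag subunits, differed by 0.04 and -0.05.

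Of 21 measured melanocyte genes and MITF targets, 1 rose, 0 fell and 20 did not pass in limma (2 and 1 at an unadjusted p under 0.05, 1 and 0 by the methods' t-test), with a median log2 difference of 0.03. Over all genes 5.91% rose and 4.6% fell in limma. The shares were 12.7% and 12.0% at an unadjusted p under 0.05, and 2.17% and 1.67% by the methods' t-test. The gene of this list that rose was *MET*, the hepatocyte growth factor receptor, by 0.50 (SE 0.12, limma adjusted p = 0.0401). *MET* lost the call in each of the 6 fits without 1 array (adjusted p up to 0.138). *PLXNC1*, a semaphorin receptor, had a log2 difference of 0.42 (adjusted p = 0.0971, and 0.031 after the control gene shift). Of the 7 measured melanocyte markers, 3 lay above the array median on every array. Their summed log2 signal was 32.6 to 32.8 in UM-Cis and 32.3 to 33.1 in UMSCC1. *TYR*, *TYRP1*, *OCA2* and *MLANA* had mean signals under the array medians in both lines, with *TYRP1*, an enzyme of melanin synthesis, at 4.06 in UM-Cis and 3.73 in UMSCC1 (adjusted p = 0.214, and 0.0401 after the control gene shift).

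Of 94 lysosomal genes measured other than *CTSA* and *LAMP1*, out of 194 listed, 7 rose, 7 fell and 80 did not pass, with a median log2 difference of 0.08. Over all genes 5.91% rose and 4.6% fell. The counts of the list were somewhat above these shares in both directions, and this excess was not tested. With the replicate label as a block 14 rose and 14 fell, against 9.79% and 8.4% of all genes. After the control gene shift 23 rose and 1 fell, against 15.4% and 0.918% of all genes. By the methods' t-test 4 rose and 4 fell, against 2.17% and 1.67% of all genes. Of 24 listed subunits of the vacuolar proton pump none was among the named probe sets, and they were not analysed here.

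Among 38 measured hydrolases and their activators, 1 rose and 4 fell (4 and 6 with the block, 1 and 2 by the methods' t-test), with a median log2 difference of -0.07. The shares over all genes were 5.91% and 4.6% (9.79% and 8.4% with the block, 2.17% and 1.67% by the methods' t-test). *CTSO*, a cysteine cathepsin, had log2 signals of 7.23, 6.91 and 6.63 in UM-Cis, against 5.23, 5.05 and 4.72 in UMSCC1. Every UM-Cis array was above every UMSCC1 array, and the difference was 1.92 on the log2 scale (SE 0.20, limma adjusted p = 0.00118). *CTSZ*, a carboxypeptidase cathepsin, averaged 7.10 ± 0.12 in UM-Cis and 7.95 ± 0.08 in UMSCC1 (SD, n = 3 each), or -0.85 on the log2 scale (SE 0.13, limma adjusted p = 0.00572). *HPSE*, the heparan sulphate-cleaving heparanase, *NAAA*, an acid amidase of fatty acid ethanolamides, and *CTSV*, a relative of cathepsin L, also fell, with log2 differences of -0.67, -1.02 and -0.69. They lost the call in 3, 4 and 5 of the 6 fits without 1 array, in each case without UM-Cis array 1 or 2 or UMSCC1 array 1 (adjusted p up to 0.156), *NAAA* and *CTSV* also without the UMSCC1 array with no number, and *CTSV* also without the UM-Cis array with no number. After the control gene shift *CTSZ*, *HPSE*, *NAAA* and *CTSV* kept a negative difference and lost the call (adjusted p from 0.112 to 0.517).

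Among 28 measured lysosomal membrane proteins, 4 rose and 3 fell (6 and 5 with the block, 1 and 2 by the methods' t-test), with a median log2 difference of 0.18. Of all genes 5.91% rose and 4.6% fell (9.79% and 8.4% with the block, 2.17% and 1.67% by the methods' t-test). *CD68*, a glycoprotein of late endosomes and lysosomes that is abundant in macrophages, had log2 signals of 10.57, 9.82 and 9.78 in UM-Cis, against 9.05, 8.52 and 8.38 in UMSCC1, which is 1.41 higher (SE 0.26, limma adjusted p = 0.0115). *CD68* lost the call without UMSCC1 array 1 (adjusted p = 0.0547) and by the methods' t-test (0.112). It is also on the macrophage list, of which 4 genes were measured. *CD14* fell by 0.53 there (adjusted p = 0.049, lost in all 6 fits without 1 array, at -0.06 after the control gene shift), *CD163* and *CSF1R* did not pass, and the summed log2 signal of the list was 22.5 to 24.0 in UM-Cis and 22.0 to 23.2 in UMSCC1. *OSTM1*, the partner of the chloride transporter CLC-7, *PIP4P1*, a phosphoinositide phosphatase, and *TMEM175*, a lysosomal ion channel, rose by 0.89, 0.74 and 0.70, and none of these 3 passed by the methods' t-test (adjusted p = 0.0572, 0.0585 and 0.0637). *PIP4P1* lost the call without UM-Cis array 2 or UMSCC1 array 1 or 2, and *TMEM175* without array 1 or 2 of either line (adjusted p up to 0.0766). *LAMP3*, a LAMP1 relative known from dendritic cells, had log2 signals of 5.73, 5.56 and 5.32 in UM-Cis, against 6.77, 7.53 and 7.63 in UMSCC1. The lines did not overlap, and its log2 difference was -1.77 (SE 0.24, limma adjusted p = 0.00326, by the methods' t-test 0.0647). The mucolipin channel genes *MCOLN2* and *MCOLN3* differed by -0.80 and -0.60 (adjusted p = 0.00577 and 0.0184), and lost the call after the control gene shift (adjusted p = 0.337 and 0.701), *MCOLN3* also without array 1 or 2 of either line (adjusted p up to 0.0799).

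Among 28 measured genes of sorting to and fusion with the lysosome, 2 rose and 0 fell in limma (4 and 3 with the block, 5 and 3 at an unadjusted p under 0.05, 2 and 0 by the methods' t-test), with a median log2 difference of 0.12. Of all genes 5.91% rose and 4.6% fell in limma. With the block 9.79% and 8.4% did, at an unadjusted p under 0.05 12.7% and 12.0%, and by the methods' t-test 2.17% and 1.67%. The 2 genes of this list that rose were *VTI1B*, a SNARE of late endosome fusion, by 0.65 (limma adjusted p = 0.0163), and *HPS4*, a subunit of the exchange factor BLOC-3, by 0.50 (adjusted p = 0.0352). *VTI1B* lost the call without array 1 or 2 of either line, and *HPS4* also without the UMSCC1 array with no number (adjusted p up to 0.123).

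**Figure D4:**
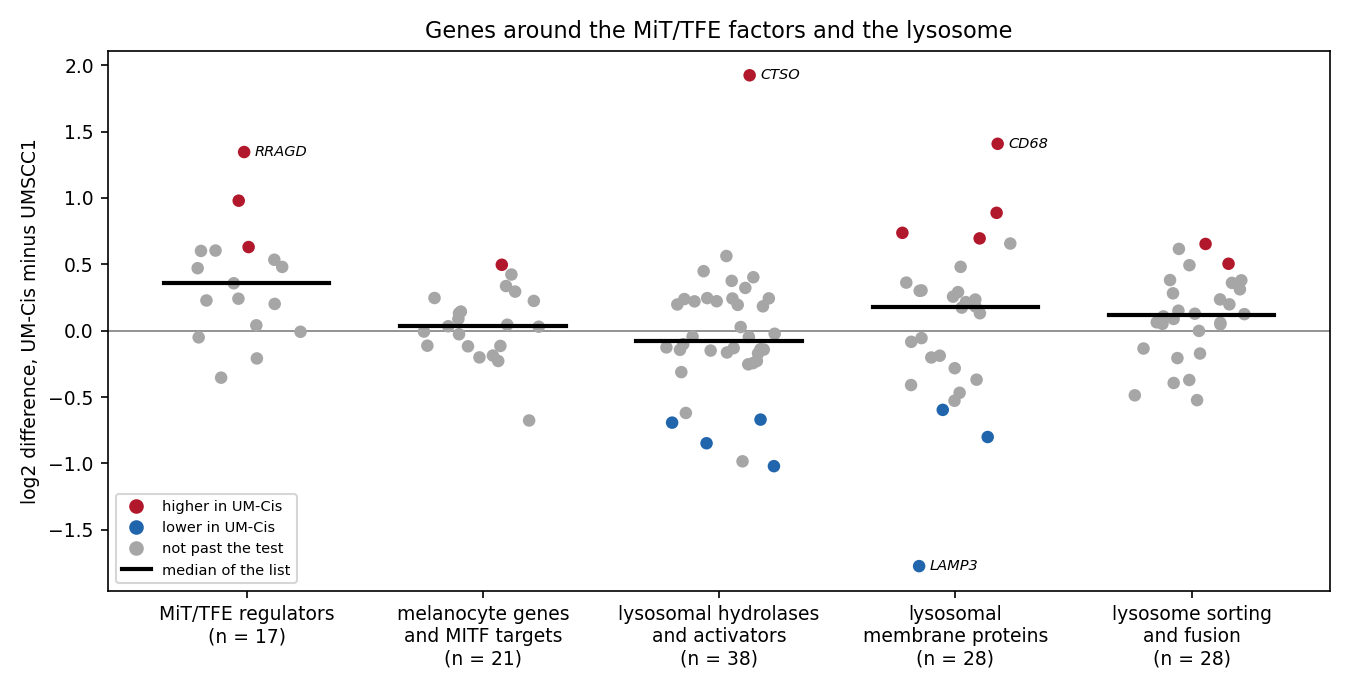
Log2 difference, UM-Cis minus UMSCC1 (signals as deposited), of each measured gene of 5 lists, red where higher and blue where lower at an adjusted p under 0.05 from limma, grey otherwise, with a black bar at the list median. The regulators have the highest list median (0.36), and *CTSO*, *CD68*, *RRAGD* and *LAMP3* lie farthest from 0.

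The same letters were counted in the promoter windows of the lists. CACGTG was in 41 of 214 windows of the other lysosomal genes (19.2%) and in 9 of 33 windows of the regulators (27.3%), against 7.26% of all windows. CATGTG was in 13 of 38 windows of the melanocyte genes and MITF targets (34.2%), against 11.1%. Of the other lysosomal genes measured, 21 had CACGTG in a window, of which 0 rose and 1 fell in limma (0 and 3 at an unadjusted p under 0.05), with a median log2 difference of 0.05. Of the 48 with a window and no CACGTG, 5 rose and 3 fell (9 and 8 at an unadjusted p under 0.05), with a median of 0.13. Over all genes tested with a window, 77 of 1186 with CACGTG rose and 77 fell, and 622 of 9550 without it rose and 470 fell. At an unadjusted p under 0.05, 147 and 173 of those with CACGTG were higher and lower, and 1321 and 1221 of those without it. The difference between the windows with and without CACGTG was not tested.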

How the data were processed

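RNA of 3 UM-Cis and 3 UMSCC1 samples was measured on 6 arrays. The authors deposited log2 signals of 44629 probe sets, after quantile normalization by their text and RMA by the submitters' processing notes. Images were read with the Affymetrix Command Console software. The version of the normalization tool and any filter on the deposited probe sets are not stated in what was read here. Signals lay between 0.66 and 13.6 without detection calls, and 6 arrays limit the precision. Probe sets were named through the platform annotation (1 symbol for 15835, several for 0, none here for 28794), and all 15835 gene identifiers were found in RefSeq GRCh38.p14. Where a gene had several, its brightest probe set on average stood for it, which left 14812 genes.

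The lines were compared over all genes with lmFit and eBayes of limma 3.58.1 (R 4.3.3, two-sided), and calls were made at a Benjamini-Hochberg adjusted p under 0.05. The step was tested on simulated data with noise independent between genes and arrays, so effects shared by whole arrays were not part of it. The members and lists were chosen with earlier results of these data known. Named were the 9 members, per list up to 4 genes higher and 4 lower with the smallest adjusted p past the test (the 2 smallest where fewer than 2 passed), and the 3 genes closest to *MITF*. *FLCN*, *FNIP1*, *FNIP2*, *LAMTOR5*, *MTOR*, *RRAGA*, *RRAGB*, *CD163*, *CSF1R*, *TYR* and *OCA2* were named after their values were seen, as were the within-array pairs. The lists were MiT/TFE regulators, melanocyte genes and MITF targets, 4 lysosomal lists, squamous, melanocyte and macrophage markers, and control genes. Of 15 control genes 7 were measured, with *EEF2* at -0.80 (adjusted p = 0.025 from limma) and *PPIA* at -0.36 (adjusted p = 0.0998). The log2 differences of the 7 ran from -0.80 to 0.56 (median -0.32), with 2 above and 5 below 0. The control gene shift thus rests on genes that did not move alike.

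Deviations from the line means of same-labelled arrays correlated across genes by 0.505 (no number), 0.237 (array 1) and 0.357 (array 2), and on this basis, which comes from the data alone, same-labelled arrays were treated as pairs in the replicate block. UM-Cis array 1 correlated more with UMSCC1 array 2 (0.265) than with UMSCC1 array 1 (0.237). UM-Cis array 2 and UMSCC1 array 1 correlated by 0.233. The pairing of arrays 1 and 2 by label is therefore uncertain. Alternatives were the unpaired t-test that the methods name, other variance priors and array weights, the replicate block, the unnumbered arrays as a batch or left out, renormalization, a filter on dim probe sets, other probe set rules and leaving out each array. Figures were drawn with matplotlib 3.10.9.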

Additional observations from a re-analysis of the deposited data

How the results depend on the processing

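*MITF* kept its direction and its call under all 18 alternatives run, and *GPNMB* under all but the methods' t-test. The filter on dim probe sets asked for at least 3 arrays above the array median. *MITF* met it through its 3 UM-Cis arrays alone, with 0 in UMSCC1, so its call under that filter is no separate support. *CTSA* and *LAMP1* kept their direction under all 18 and lost the call under 4 and 6. Against 876 genes higher and 681 lower in the result reported, the methods' t-test gave 322 and 248, 1 member was higher and 0 were lower, and 4 other lysosomal genes went each way. With array weights 1594 genes were higher and 1508 lower (lysosomal 13 and 15), with the replicate block 1450 and 1244 (lysosomal 14 and 14), with the unnumbered arrays as a batch 1731 and 1528 (lysosomal 17 and 14), and with the numbered arrays alone 1387 and 1301 (lysosomal 13 and 13). The block changed no call of a member. Shifting the arrays to equal control genes gave 2275 higher and 136 lower, 0 members lower, and 23 lysosomal genes higher and 1 lower. This shift raised every difference by 0.47 and turned those of *TFEB* (0.0867), *TFEC* (0.27), *MLANA* (0.26) and *MC1R* (0.25). The difference of *PPIA* turned too (0.11), but *PPIA* is 1 of the control genes that set the shift. Without 1 array, 433 to 848 genes were higher and 324 to 738 lower, 2 members were higher and 0 to 2 lower, and 2 to 7 lysosomal genes were higher and 3 to 10 lower. The difference of *TFE3* was -0.0099 with array weights, -0.0668 with the numbered arrays alone and -0.15 to 0.18 without 1 array, below 0 without the unnumbered UM-Cis array (-0.15) or UMSCC1 array 1 (-0.02). Where the means lay under the array medians, as for *TFEC*, *MLANA* and *MITF* in UMSCC1, signal over background is not known, and *TFEC* and *MLANA* were not tested under the filter on dim probe sets. The cause of the changes with weights, block and batch was not tested.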
